A study of Mus musculus with 24 samples.

Results

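The immediate early genes described here are Fos, Fosb, Jun, Junb, Jund, Egr1, Ier2, Dusp1, Zfp36 and Atf3, taken by gene symbol. They are 10 of the 55487 genes in the count table, all 10 were found, and all 10 passed the filter on low counts that left 23059 genes for testing. RNA was sequenced in bulk from mouse cells labelled LSK, the lineage-negative, Sca-1-positive, KIT-positive fraction that holds blood stem cells and early progenitors; the study's own design text calls the sorted cells lineage-negative and KIT-positive. The 24 libraries fall into 6 groups of 4, which that text calls biological replicates. Wild-type (WT) cells came from newborn liver at postnatal day 0 (P0) and from bone marrow at day 28 (P28). The other groups carry ME, the human MLL::ENL leukaemia fusion gene, in a Tet-off model, in which doxycycline keeps the gene off and its removal induces it. ME induced at the embryonic age labelled E10.5 was sampled in P0 liver (called P0 ME here) and in P28 marrow (P28 E10.5 ME), and ME induced at birth was sampled in P28 marrow (P28 P0 ME). The last group, labelled P28 ME RLT Vav Txp, is marrow at P28 with the fusion induced at E10.5, and the labels do not expand RLT, Vav or Txp. Age and tissue cannot be told apart, because each P0 library is liver and each P28 library is marrow. The labels do not name the cell type or promoter that drives the fusion, nor whether the WT cells carry the Tet-off driver.

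Immediate early genes are transcribed within minutes of a growth factor, cytokine or stress signal, without new protein synthesis, from promoters that bind SRF with its partners and CREB-family factors downstream of MAP kinases. Fos and Jun proteins pair as AP-1, which switches on the next set of genes, while Dusp1 dephosphorylates the MAP kinases and Zfp36 (tristetraprolin) speeds decay of AU-rich messages, so both limit the response. In blood stem cells AP-1 and Egr1 are linked to quiescence and activation, and the same genes also rise when tissue is dissociated and cells are sorted.

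The promoter sequences of Fos and Junb are shown because Fos had the lowest log2 fold change between ages of the 9 genes other than Atf3, which rested on few reads, and Junb a genotype difference that itself changed with age. Each is the 250 bases before the RefSeq transcript start in GRCm38.p6, written 5′ to 3′ on the gene's strand, and capitals mark TGACG, the core of a CREB site, and TATAAA, bound by the TATA-binding protein.
Fos, chr12:85473640-85473889, plus strand: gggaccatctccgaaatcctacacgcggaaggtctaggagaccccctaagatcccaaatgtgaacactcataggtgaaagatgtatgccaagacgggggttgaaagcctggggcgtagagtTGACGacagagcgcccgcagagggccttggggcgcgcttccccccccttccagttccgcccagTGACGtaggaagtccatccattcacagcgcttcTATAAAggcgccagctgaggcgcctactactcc
Junb, chr8:84978749-84978998, minus strand: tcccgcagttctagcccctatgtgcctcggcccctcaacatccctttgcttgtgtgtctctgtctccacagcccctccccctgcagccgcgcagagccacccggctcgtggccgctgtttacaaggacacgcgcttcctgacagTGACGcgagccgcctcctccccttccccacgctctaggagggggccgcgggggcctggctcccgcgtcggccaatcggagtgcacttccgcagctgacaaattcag
The Fos window holds TGACG 129 and 66 bases before the start and TATAAA 33 bases before it, and the Junb window holds TGACG 106 bases before it. A window was on hand for 8 of the 10 genes, all but Egr1 and Ier2. Read on both strands, TGACG lay in 5 of the 8 windows (Fos, Fosb, Junb, Dusp1 and Atf3), against 17.8% of all 32851 windows of that length. The full CREB site TGACGTCA, which contains TGACG, lay only in that of Dusp1 among the 8, 143 bases before the start, against 1.55% of all windows. The CArG box bound by SRF lay in 1 of the 8 (Zfp36, 58 bases before the start), against 1.47%. The Egr site GCGNGGGCG lay in 2 of the 8 (Fosb and Zfp36), against 4.7%. The AP-1 site TGANTCA lay in 0 of the 8, against 6.75%. For every site these counts say only whether the exact letters lie in these windows, and sites further from the start were not searched. The Jund window ends at chr8:70697738, short of the gene start at 70698949 in GENCODE M21. The windows of Atf3, Fosb, Zfp36 and Dusp1 overlap exons of the 10 genes there. Those of Atf3 (chr1:191183334-191183583) and Dusp1 (chr17:26508473-26508722) lie within the gene limits given below, not before them.

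Library totals ran from 31233688 to 89774511 counts, and levels are given below as CPM, a gene's counts for every 1000000 counts of its library, scaled with TMM factors. All 10 LSK and stem cell markers were detected in every group, with summed levels of 4640 to 5771 CPM in the P28 groups other than P28 ME RLT Vav Txp, which held 2412 to 3398 CPM. Their sums were 5007 CPM in P0 WT library 1, 5405 CPM in P0 ME library 1 and 2391 to 3631 CPM in the other P0 libraries. Among the P0 libraries, numbers 2 to 4 of both genotypes held high levels of mature-cell markers and the 2 libraries numbered 1 did not. The 10 macrophage markers summed to 2445 to 4520 CPM in those 6 libraries, 452 CPM in P0 WT library 1 and 281 CPM in P0 ME library 1, against 569 to 727 CPM in P28 WT. The 10 erythroid markers summed to 5563 to 18111 CPM, 722 CPM, 342 CPM and 507 to 673 CPM in the same order. The 10 neutrophil markers summed to 11441 to 38223 CPM, 900 CPM, 839 CPM and 723 to 961 CPM in that order. P0 WT library 1 stood apart in another way, with 12040 CPM of mast cell and basophil markers against 2017 to 3570 CPM in the other P0 WT libraries. The P28 ME RLT Vav Txp libraries held 1958 to 7343 CPM of macrophage markers. Because these are bulk samples, fewer cells of a type and less RNA per cell cannot be told apart.

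**Figure D1:**
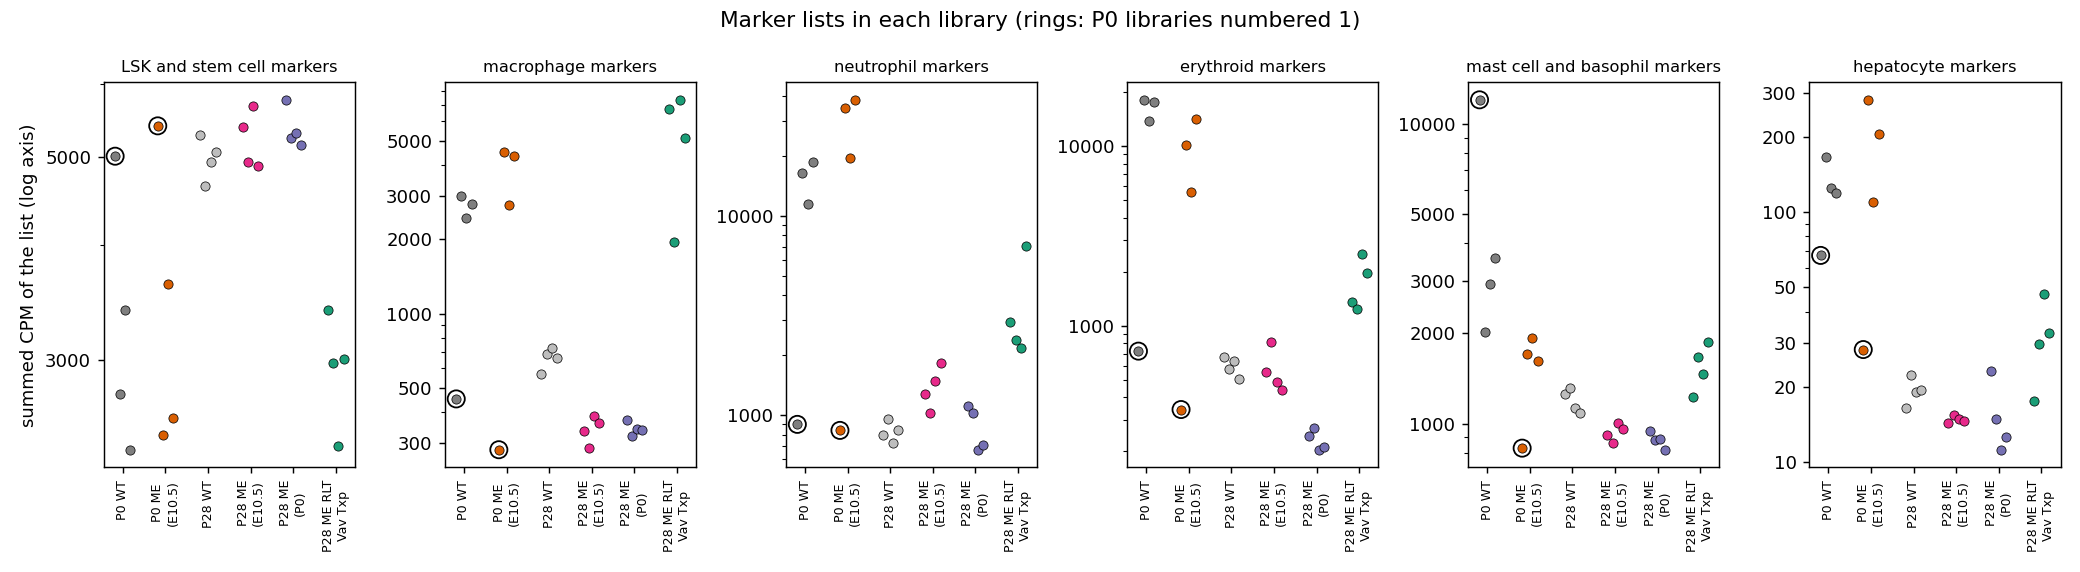
Summed CPM of 6 marker lists (y axis, log scale) in each of the 24 libraries (points), by group on the x axis, with rings on the P0 libraries numbered 1. The ringed libraries lie near the P28 level for macrophage, neutrophil and erythroid markers, and P0 WT library 1 is highest for mast cell and basophil markers, at 12040 CPM.

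The genes lie on 7 chromosomes of GRCm38, with the gene limits of GENCODE M21. Fos (ENSMUSG00000021250) spans chr12:85473890-85477273 and Fosb (ENSMUSG00000003545) chr7:19302696-19310051, and both encode AP-1 subunits. Jun (ENSMUSG00000052684) at chr4:95049034-95052222, Junb (ENSMUSG00000052837) at chr8:84974484-84978718 and Jund (ENSMUSG00000071076) at chr8:70698949-70700616 encode their partners. Atf3 (ENSMUSG00000026628), at chr1:191170296-191218039, encodes a stress-induced factor of the same superfamily. Egr1 (ENSMUSG00000038418, chr18:34859823-34864984) encodes a zinc-finger transcription factor, and Ier2 (ENSMUSG00000053560, chr8:84661331-84662852) a nuclear protein of the early response. Dusp1 (ENSMUSG00000024190) lies at chr17:26505590-26562128 and Zfp36 (ENSMUSG00000044786) at chr7:28376784-28380253. Exons of 5 of the 10 overlap a gene on the other strand: Jun with Junos, Junb with Prdx2, Jund with Gm11175, Dusp1 with Ergic1 and Zfp36 with Gm44710. The strand setting of the counting is not given in the sources used here, so reads from either partner cannot be told apart in those overlaps.

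Per kilobase of exon, Ier2 had the highest mean level of the 10 in each of the 6 groups, from 56.7 CPM per kb in P28 WT to 118 CPM per kb in P0 WT. Junb, Jund and Zfp36 were at 11.5 to 45.3 CPM per kb and took the next 3 places in each group but P0 WT, where Jun (26.2 CPM per kb) stood above Zfp36 (23.7), with Dusp1 at 7.91 to 22.6, Egr1 at 4.57 to 20.0 and Jun at 2.74 to 26.2. Fos ranged more widely, from 0.439 CPM per kb in P28 WT to 16.5 in P0 WT. Fosb and Atf3 were the lowest pair in each group, at 0.00207 to 2.34 CPM per kb. Across groups, P0 WT had the highest mean CPM for 6 genes (Fos, Jun, Junb, Egr1, Ier2 and Dusp1), P0 ME for 3 (Jund, Zfp36 and Fosb) and P28 ME RLT Vav Txp for Atf3. P28 WT had the lowest mean for 6 (Fos, Junb, Jund, Egr1, Ier2 and Dusp1). Neighbours in that order often overlapped, as for Fos, whose 3 lowest groups (P28 WT, P28 P0 ME and P28 E10.5 ME) together spanned only 0.419 to 2.40 CPM.

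**Figure D2:**
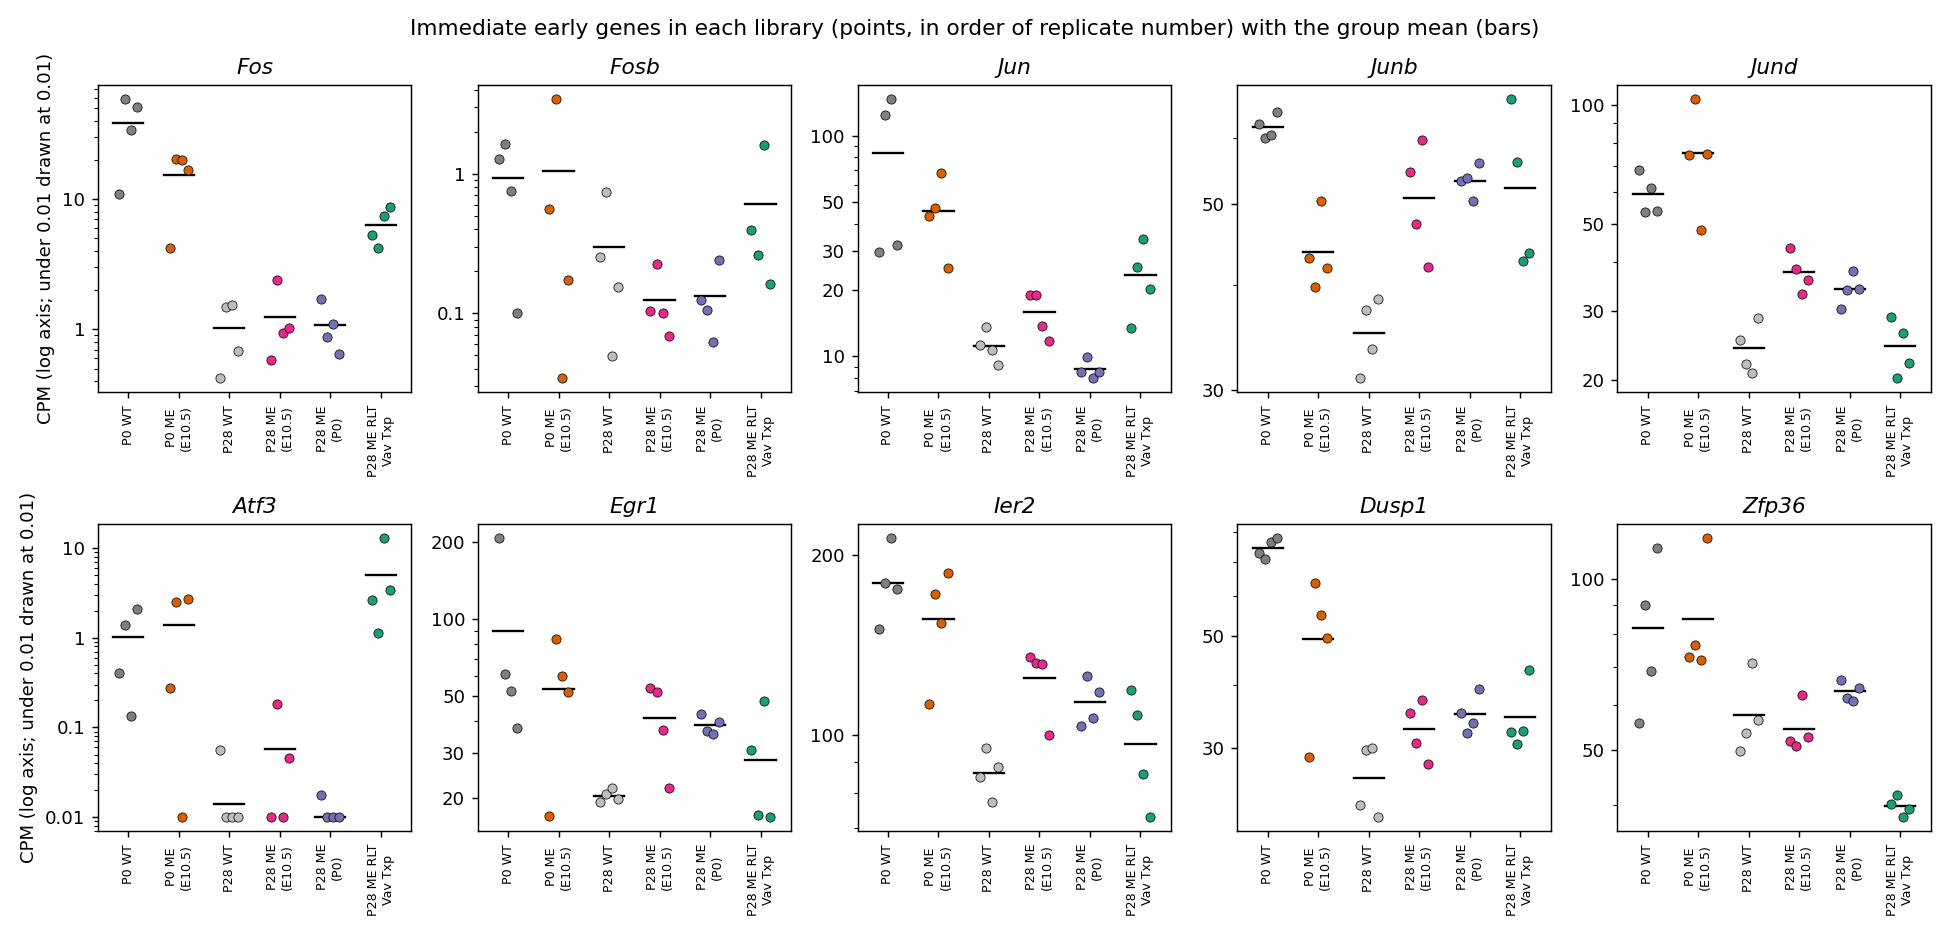
CPM of each of the 10 genes (y axes, log scale) in each library (points, in order of replicate number) by group (x axis), with bars at the group means and values under 0.01 drawn at 0.01. P0 libraries lie above P28 WT for 8 of the 10 genes in WT, while P28 E10.5 ME and P28 P0 ME lie between for Junb, and P28 ME RLT Vav Txp is highest for Atf3.

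The first comparison asked how WT cells differ between newborn liver and marrow at day 28. All 10 genes had a lower mean in P28 WT and 8 of 10 passed the test as lower, Fosb and Zfp36 being the exceptions; 4.56% of the 23059 genes tested were called lower and 7.68% called either way (edgeR quasi-likelihood test, adjusted p under 0.05). In the same 8 genes no P28 WT library reached a P0 WT library, which held for 9.27% of all genes tested. Over the 10 genes the log2 fold changes had a median of -1.59, against -0.07 over all genes tested.

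Among the Fos family, Fos levels were 11.1, 59.1, 34.0 and 51.3 CPM in P0 WT libraries 1 to 4, and 0.419, 1.48, 1.55 and 0.680 CPM in P28 WT. The lowest newborn library was thus above every P28 library. The change was -5.23 ± 0.61 on the log2 scale (SE, adjusted p = 6.35e-06 by edgeR), from 38.9 ± 21.3 to 1.03 ± 0.567 CPM (SD, n = 4 each). Fosb was far lower and overlapped between the ages, at 1.27, 1.62, 0.755 and 0.10 CPM in P0 WT, against 0.252, 0.739, 0.0499 and 0.155 CPM at P28, with a log2 fold change of -1.66 ± 1.16 (SE, adjusted p = 0.445 by edgeR).

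Jun was split within P0 WT, at 125 and 147 CPM in libraries 2 and 3 and 29.7 and 32.1 CPM in libraries 1 and 4, yet all 4 lay above P28 WT at 11.2, 13.6, 10.7 and 9.15 CPM. Its log2 fold change was -2.91 ± 0.42 (SE, adjusted p = 9.45e-05 by edgeR). Junb, the partner that restrains stem cell proliferation in mice, was even within each group, at 62.3, 59.9, 60.4 and 64.4 CPM in P0 WT, against 31.0, 37.4, 33.6 and 38.6 CPM at P28. It fell by 0.81 ± 0.15 on the log2 scale (SE, adjusted p = 0.00156 by edgeR). Jund, the least inducible Jun gene, stood at 68.5, 53.7, 61.5 and 54.0 CPM in P0 WT, against 25.2, 21.9, 20.9 and 28.8 CPM at P28, a log2 fold change of -1.29 ± 0.19 (SE, adjusted p = 0.000116 by edgeR). All 3 Jun genes thus fell with no overlap between the ages.

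Atf3 was measured by few reads: 20, 108, 12 and 126 counts in P0 WT libraries 1 to 4 against 2, 0, 0 and 0 counts in P28 WT. With each P28 WT library set to a floor of 3 counts, it was at least 15.5-fold lower at P28 (edgeR adjusted p = 0.0219), and at least 9.94-fold without P0 WT library 4. The call was lost without P28 WT library 2, 3 or 4 (adjusted p = 0.0649, 0.0765 and 0.0725) and with limma voom (adjusted p = 0.121).

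Egr1 was at 208 CPM in P0 WT library 1 and 61.0, 52.7 and 37.6 CPM in libraries 2 to 4, against 19.3, 20.8, 22.0 and 19.9 CPM in P28 WT. The groups did not overlap and the log2 fold change was -2.13 ± 0.48 (SE, adjusted p = 0.00731 by edgeR), which came to -1.30 without P0 WT library 1. Ier2 fell from 151, 179, 214 and 175 CPM to 84.9, 95, 77.1 and 88.4 CPM, a log2 fold change of -1.06 ± 0.17 (SE, adjusted p = 0.00026 by edgeR).

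Dusp1, the MAP kinase phosphatase, had the tightest P0 WT values apart from Junb, at 72.9, 71.0, 76.7 and 78.1 CPM, and stood at 23.2, 29.7, 29.97 and 21.9 CPM in P28 WT. Its log2 fold change was -1.51 ± 0.19 (SE, adjusted p = 2.29e-05 by edgeR). Zfp36 overlapped, at 55.8, 90.2, 68.9 and 113 CPM against 49.7, 53.5, 71.1 and 56.5 CPM, with a log2 fold change of -0.51 ± 0.19 (SE, adjusted p = 0.0968 by edgeR). It passed the test without P0 WT library 1, at -0.65 (adjusted p = 0.0239), and with offsets for GC content and length (adjusted p = 0.0425).

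Markers of mature cells moved with this difference. From P0 to P28 in WT, 8 of 10 macrophage, 7 of 10 neutrophil, 9 of 10 erythroid, 5 of 10 mast cell and basophil, 8 of 8 B cell and 6 of 8 hepatocyte markers were called lower. Over all genes tested 4.56% were called lower. In P28 WT 7 of the 8 hepatocyte markers were under 1 CPM. P0 WT library 1, whose macrophage sum was below that of each P28 WT library, exceeded every P28 WT library for 9 of the 10 genes, and its Zfp36 lay within their range. The share of all genes for which this library did so was not counted. That library also held more hepatocyte markers than P28 WT, 67.2 CPM against 16.4 to 22.4 CPM, beside its mast cell and basophil markers. With both P0 libraries numbered 1 left out, 9 of the 10 genes were called lower. Over all genes that refit called 2797 of 23841 either way, against 1771 of 23059 with all libraries. The part of the other cell types in the remaining P0 libraries was not tested.

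The next comparison asked the same of cells with ME induced at E10.5. Of the 10 genes, 6 passed as lower in P28 marrow (Fos, Jun, Jund, Zfp36, Dusp1 and Atf3), against 8.45% of all genes called lower and 18.2% called either way. For 4 of them (Fos, Jun, Jund and Zfp36) the groups did not overlap, as for 25.4% of all genes tested. The median log2 fold change was -0.82, against -0.18 over all genes. Without P0 ME library 4, or without P28 E10.5 ME library 1, 3 of the 10 were called. Over all genes those refits called 2849 of 24242 and 3028 of 24349 either way, against 4206 of 23059 with all libraries.

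Fos was at 4.25, 20.3, 20.0 and 16.7 CPM in P0 ME libraries 1 to 4 and 0.581, 2.40, 0.943 and 1.03 CPM in P28 E10.5 ME, with the lowest P0 value again above the highest P28 value. The log2 fold change was -3.62 ± 0.57 (SE, adjusted p = 0.000114 by edgeR). Jun fell from 43.4, 47.1, 67.7 and 25.1 CPM to 19.1, 18.9, 13.8 and 11.8 CPM, by 1.53 ± 0.40 on the log2 scale (SE, adjusted p = 0.00883 by edgeR). Jund fell from 74.8, 104, 48.2 and 75.3 CPM to 43.3, 38.3, 33.2 and 36.0 CPM, by 1.00 ± 0.19 (SE, adjusted p = 0.000726 by edgeR). These 3 calls held under every alternative run and without each library in turn.

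Zfp36 was at 72.8, 76.6, 72.1 and 118 CPM in P0 ME and 51.7, 50.7, 62.4 and 52.7 CPM in P28 E10.5 ME, a log2 fold change of -0.64 ± 0.19 (SE, adjusted p = 0.0175 by edgeR). The call was lost without P0 ME library 4 (-0.43, adjusted p = 0.133) and without P28 E10.5 ME library 1 or 2 (adjusted p = 0.0888 and 0.0597). Dusp1 passed although the groups overlapped, at 28.9, 63.6, 55.0 and 49.6 CPM against 35.2, 30.7, 37.3 and 27.9 CPM, with a log2 fold change of -0.59 ± 0.19 (SE, adjusted p = 0.0327 by edgeR). That call was lost without P0 ME library 2, 3 or 4, or P28 library 1, 2 or 4, with adjusted p from 0.0767 to 0.161, and with no filter (0.0673) or only the groups compared (0.0747). Atf3 had 18, 150, 0 and 110 counts in P0 ME and 0, 14, 0 and 2 counts in P28 E10.5 ME, with a fitted log2 fold change of -4.48 ± 1.44 (SE, adjusted p = 0.0318 by edgeR) that lost its call without P0 ME library 2 or 4, or P28 library 1, 3 or 4 (adjusted p from 0.0758 to 0.0904), with only the groups compared (0.0733) and with limma voom (0.416). Without P28 library 2, which held 14 of the 16 P28 counts, the Atf3 value was -6.46.

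The other 4 genes did not pass. Junb was at 43.1, 39.8, 50.4 and 42.0 CPM in P0 ME and 54.6, 47.3, 59.6 and 42.1 CPM in P28 E10.5 ME, a log2 fold change of 0.22 ± 0.15 (SE, adjusted p = 0.35 by edgeR). Ier2 was at 113, 172, 154 and 186 CPM against 135, 132, 131 and 99.9 CPM, a log2 fold change of -0.33 ± 0.17 (SE, adjusted p = 0.175 by edgeR). Egr1 was lowest in P0 ME library 1, at 17.1 CPM against 83.8, 60.1 and 52.0 CPM in the others, and at 54.2, 52.0, 37.1 and 22.0 CPM in P28 E10.5 ME, a log2 fold change of -0.37 ± 0.46 (SE, adjusted p = 0.623 by edgeR). Fosb ranged from 0.0342 to 3.43 CPM in P0 ME and from 0.0686 to 0.224 CPM in P28 E10.5 ME.

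Marker lists moved here too, with 10 of 10 macrophage, 9 of 10 neutrophil, 8 of 10 erythroid and 8 of 8 hepatocyte markers called lower at P28. Over all genes tested 8.45% were called lower. P0 ME library 1, whose macrophage, neutrophil and erythroid sums lay below those of each P28 E10.5 ME library, was above every P28 E10.5 ME library for 6 genes (Fos, Fosb, Jun, Jund, Zfp36 and Atf3). It lay within their range for Junb, Ier2 and Dusp1 and below it for Egr1, and the like shares of all genes were not counted. Its B cell markers, at 255 CPM against 53.0 to 72.1 CPM, and hepatocyte markers, at 28.2 CPM against 14.4 to 15.5 CPM, were higher than theirs. Without both P0 libraries numbered 1, 7 of the 10 were called lower, Ier2 among them at an edgeR adjusted p of 0.0433. Over all genes that refit called 5101 of 23841 either way, against 4206 of 23059 with all libraries.

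The difference between these age contrasts, which is also the ME effect at P28 minus that at P0, was tested as an interaction. Junb alone of the 10 passed, at 1.03 ± 0.22 on the log2 scale (SE, adjusted p = 0.0302 by edgeR), while 0.468% of all genes were called in that direction and 0.72% in either. Its WT mean went from 61.8 ± 2.05 to 35.1 ± 3.49 CPM between the ages and its ME mean from 43.8 ± 4.61 to 50.9 ± 7.72 CPM (SD, n = 4 each), so that the ME mean was the lower at P0 and the higher at P28. Dusp1, at 0.92 ± 0.27 (SE, adjusted p = 0.0901 by edgeR), and Ier2, at 0.73 ± 0.24 (SE, adjusted p = 0.121 by edgeR), did not pass. The Junb call was lost without P0 WT library 2 or 3, P0 ME library 2 or 4, P28 WT library 1, 2 or 3, or P28 E10.5 ME library 1, 2 or 3, with values of 0.95 to 1.07 and adjusted p from 0.057 to 0.0901. It was also lost with no filter (adjusted p = 0.0859), with only the groups compared (0.0641) and with plain library totals (0.83, adjusted p = 0.0819). In the refits that lost the Junb call by leaving out 1 library, 11 to 62 of all genes tested were called, against 166 with all 24 libraries. Without P0 WT library 4, 3 of the 10 genes passed, beside 1653 of all 24171 genes. The part of other cell types in this interaction was not tested.

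**Figure D3:**
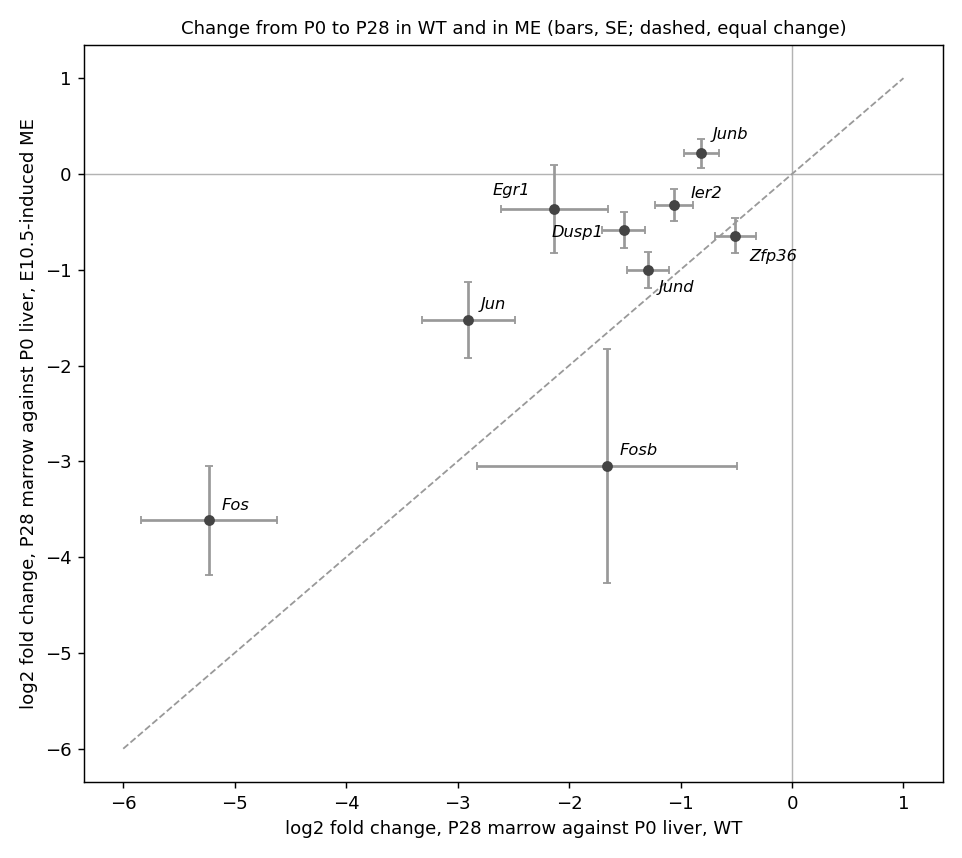
Fitted log2 fold change of 9 genes from P0 liver to P28 marrow in WT (x axis) and in E10.5-induced ME (y axis), with bars of 1 SE and a dashed line of equal change; Atf3 is left out because its P28 WT level was under the floor. Junb lies above the line at -0.81 in WT and 0.22 in ME, and Fos is the lowest gene on both axes.

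At P0 itself, ME against WT gave 0 of 10 genes past the test by edgeR, 4 of 10 at an unadjusted p under 0.05, and 1 (Junb) by DESeq2, with 0 by limma voom. Over all genes 0.642% were called by edgeR, 802 of 22511 by DESeq2 and 18 of 23059 by limma voom. The share of all genes at an unadjusted p under 0.05 was not counted. Junb and Dusp1 did not overlap between the genotypes, which held for 3.74% of all genes tested. Every P0 ME library was lower for Junb, with 39.8 to 50.4 CPM against 59.9 to 64.4 CPM in WT, for a fitted log2 difference of -0.49 ± 0.15 (SE, adjusted p = 0.135 by edgeR and 0.0358 by DESeq2). Dusp1 was likewise lower in each, at 28.9 to 63.6 CPM against 71.0 to 78.1 CPM, with a log2 fold change of -0.60 ± 0.19 (SE, adjusted p = 0.143 by edgeR). Fos, at 4.25 to 20.3 CPM against 11.1 to 59.1 CPM, overlapped and had a log2 fold change of -1.35 ± 0.51 (SE, adjusted p = 0.223 by edgeR). Jun, at 25.1 to 67.7 CPM against 29.7 to 147 CPM, had -0.87 ± 0.39 (SE, adjusted p = 0.307 by edgeR). The median over the 10 genes was -0.35, against -0.01 over all genes.

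In P28 marrow, ME induced at E10.5 was compared with WT. Junb, Ier2 and Jund were called higher, 3 of 10, against 7.82% of all genes called higher and 12.3% called either way. The groups did not overlap for these 3 and for Egr1, 4 of 10, against 28.2% of all genes. The median log2 fold change was 0.52 (0.42 with Atf3 set at its floor), against -0.10 over all genes.

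Junb was at 54.6, 47.3, 59.6 and 42.1 CPM in P28 E10.5 ME against 31.0 to 38.6 CPM in P28 WT, a log2 fold change of 0.53 ± 0.15 (SE, adjusted p = 0.024 by edgeR). Ier2, at 135, 132, 131 and 99.9 CPM against 77.1 to 95 CPM, had 0.53 ± 0.17 (SE, adjusted p = 0.0384 by edgeR). Jund, at 43.3, 38.3, 33.2 and 36.0 CPM against 20.9 to 28.8 CPM, had 0.64 ± 0.19 (SE, adjusted p = 0.0266 by edgeR). All 3 were modest in size, and none of them kept its call under RLE scaling (adjusted p = 0.0528, 0.0785 and 0.0516 for Junb, Ier2 and Jund), with no filter or with plain library totals, or without P28 WT library 1, 2 or 3 or P28 E10.5 ME library 1, where adjusted p ran from 0.0619 to 0.139. Without P28 E10.5 ME library 2, Junb alone was called (Ier2 0.0978 and Jund 0.0645), without library 3 Jund alone (Junb 0.103 and Ier2 0.0996), and without P28 WT library 4 Ier2 was lost (0.0589). Egr1, at 54.2, 52.0, 37.1 and 22.0 CPM against 19.3 to 22.0 CPM, had library 4 only just above the highest WT library and the largest fitted change among the 4 that did not overlap, 1.01, with a wide error (SE 0.46, edgeR adjusted p = 0.163). Its adjusted p was 0.0465 with limma voom and 0.00425 when only the groups compared were fitted. Jun, at 0.51 (edgeR adjusted p = 0.431), and Dusp1, at 0.32 (edgeR adjusted p = 0.286), overlapped. Fos levels overlapped as well, at 0.581 to 2.40 CPM against 0.419 to 1.55 CPM. Macrophage marker sums were lower in P28 E10.5 ME (285 to 386 CPM) than in P28 WT (569 to 727 CPM), and mitochondrially encoded transcripts made up 0.371% to 0.52% of counts against 1.32% to 2.15%; their part in these differences was not tested.

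ME induced at birth was compared with the same P28 WT libraries, so the 2 comparisons share their controls. Junb alone was called higher, 1 of 10, against 0.494% of all genes called higher and 1.57% either way. In 5 of 10 genes the groups did not overlap (Junb, Egr1, Ier2, Jund and Dusp1), against 24.8% of all genes. Junb was at 53.2, 53.7, 50.4 and 56.0 CPM, a log2 fold change of 0.60 ± 0.15 (SE, adjusted p = 0.0477 by edgeR). That adjusted p sits at the threshold and rose to between 0.104 and 0.170 without P28 WT library 1, 2 or 3 or without any 1 of the P28 P0 ME libraries. In those refits Junb stayed at 0.53 to 0.67 on the log2 scale. Calls over all genes fell to 7 to 10 there, from 362 with all 24 libraries. The Junb call was also lost with RLE scaling (0.0592), with no filter (0.107) and with GC and length offsets (0.0878). Egr1 was at 42.8, 36.7, 35.8 and 39.6 CPM, each well above the 22.0 CPM of the highest WT library, with a log2 fold change of 0.92 ± 0.46 (SE, adjusted p = 0.272 by edgeR), and passed when only the groups compared were fitted (adjusted p = 0.00021). Ier2 was at 104 to 125 CPM (log2 fold change 0.39, edgeR adjusted p = 0.18). Jund was at 30.4 to 37.9 CPM (0.49, edgeR adjusted p = 0.138). Dusp1 was at 32.1 to 39.2 CPM against 21.9 to 29.97 CPM (0.42, edgeR adjusted p = 0.214). The median over the 10 genes was 0.26, against -0.09 over all genes. Macrophage marker sums were 320 to 372 CPM in P28 P0 ME and erythroid sums 204 to 271 CPM, both below the P28 WT ranges of 569 to 727 and 507 to 673 CPM. Mitochondrially encoded transcripts made up 0.50% to 0.623% of counts, also below P28 WT, and the part of these in the differences was not tested.

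Between the ages of induction, P28 P0 ME against P28 E10.5 ME, 0 of 10 genes passed by edgeR, and 0.0477% of all genes were called. At an unadjusted p under 0.05 there was 1 of 10, Jun, which was also called by limma voom (adjusted p = 0.0406) and not by DESeq2, where 0 of 10 passed. Over all genes limma voom called 2333 of 23059 and DESeq2 92 of 22953, and the share at that unadjusted p was not counted. Jun was at 8.50, 9.95, 7.94 and 8.51 CPM in P28 P0 ME, below every P28 E10.5 ME library at 11.8 to 19.1 CPM, with a log2 fold change of -0.87 ± 0.39 (SE, adjusted p = 1 by edgeR). It was the only 1 of the 10 whose groups did not overlap, against 11.8% of all genes. No other gene of the 10 kept the groups apart, and Junb, for example, stood at 50.4 to 56.0 CPM and 42.1 to 59.6 CPM.

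The P28 ME RLT Vav Txp group differed from both P28 WT and P28 E10.5 ME in Fos and Atf3. Against P28 WT, Fos, Atf3 and Junb were called higher, 3 of 10, beside 2.64% of all genes called higher and 4.12% either way. Groups did not overlap for 5 of 10 (Fos, Atf3, Junb, Dusp1 and, lower, Zfp36), against 11.5% of all genes. The median log2 fold change was 0.52, against 0.01 over all genes.

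Atf3 had 178, 83, 561 and 189 counts (2.6, 1.14, 13.0 and 3.40 CPM) in the 4 libraries, where P28 WT had 2, 0, 0 and 0 counts and P28 P0 ME 1, 0, 0 and 0 counts. It was at least 77.5-fold higher than in P28 WT (floor of 3 counts per library, edgeR adjusted p = 0.00474), and at least 36.6-fold without library 3, the highest. Fos was at 5.29, 4.21, 7.41 and 8.66 CPM, against at most 1.55 CPM in P28 WT, a log2 fold change of 2.62 ± 0.55 (SE, adjusted p = 0.00434 by edgeR). The Fos call was lost with limma voom (adjusted p = 0.107) and in no other alternative, and the Atf3 call was lost in none. Junb was at 66.8, 56.1, 42.7 and 43.7 CPM, a log2 fold change of 0.57 ± 0.15 (SE, adjusted p = 0.0299 by edgeR). Its call was lost without P28 WT library 1, 2 or 3 or P28 ME RLT Vav Txp library 1 or 2 (adjusted p from 0.0625 to 0.134), and with no filter, only the groups compared or plain library totals. Jun, at 13.4, 25.6, 34.1 and 20.3 CPM, overlapped with P28 WT by 1 library and had 1.07 ± 0.39 (SE, adjusted p = 0.15 by edgeR).

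Zfp36 had the opposite sign. It was at 40.1, 41.6, 38.0 and 39.4 CPM, below all 20 other libraries, with a log2 fold change of -0.54 against P28 WT (SE 0.19, edgeR adjusted p = 0.115). Only with plain library totals did it pass among the alternatives (adjusted p = 0.0222). Fosb, at 0.394, 0.262, 1.6 and 0.162 CPM, overlapped with P28 WT, as did Egr1, at 30.9, 17.3, 48.2 and 16.9 CPM, and Ier2, at 119, 108, 85.9 and 72.8 CPM.

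Set against P28 E10.5 ME, which shares the age of induction, the P28 ME RLT Vav Txp group had Fos and Atf3 called higher and Jund called lower, 3 of 10, against 17.9% of all genes called either way (8.5% higher, 9.38% lower). Groups did not overlap for those 3 and Zfp36, 4 of 10, against 25.7% of all genes. The log2 fold change of Fos was 2.36 ± 0.54 (SE, adjusted p = 0.0043 by edgeR) and that of Atf3 6.34 ± 1.56 (SE, adjusted p = 0.00703 by edgeR). Without P28 E10.5 ME library 2 the Atf3 value was 8.32, and without P28 ME RLT Vav Txp library 3 it was 5.28 (adjusted p = 0.0411). Jund was at 29.0, 20.2, 26.3 and 22.1 CPM, below each of the P28 E10.5 ME libraries and close to P28 WT at 20.9 to 28.8 CPM, with a log2 fold change of -0.63 ± 0.19 (SE, adjusted p = 0.0223 by edgeR). The Jund call was lost without P28 E10.5 ME library 1 or 2 or P28 ME RLT Vav Txp library 2 or 4 (adjusted p from 0.0529 to 0.0994), and with no filter or GC and length offsets. Zfp36 had -0.45 (edgeR adjusted p = 0.0924).

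Macrophage markers moved with the Fos and Atf3 differences. In the P28 ME RLT Vav Txp libraries 1 to 4 they summed to 6763, 1958, 7343 and 5143 CPM. Of the 10 markers, 9 were called higher than in P28 WT, against 2.64% of all genes. Against P28 E10.5 ME 10 of 10 were higher, against 8.5% of all genes, and none of the 10 was at 0 in any group. Library 2 had the lowest macrophage sum and the lowest Fos and Atf3 levels of the 4, and library 3 the highest macrophage sum and Atf3. The order did not hold throughout: library 4 had the highest Fos with the third macrophage sum, and library 1, next to library 3 in macrophage sum, had less Fos and Atf3 than libraries 3 and 4. Library 4 was highest of the 4 for neutrophil, megakaryocyte and mast cell and basophil markers, and library 3 for macrophage, erythroid and B cell markers. Neutrophil sums were 2178 to 7072 CPM against 723 to 961 CPM in P28 WT. Megakaryocyte sums were 223 to 458 CPM against 57.9 to 70.8 CPM. Erythroid sums were 1243 to 2496 CPM against 507 to 673 CPM in P28 WT, and LSK marker sums were lower, as given above. The part of these cells in the Fos and Atf3 values was not tested.

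**Figure D4:**
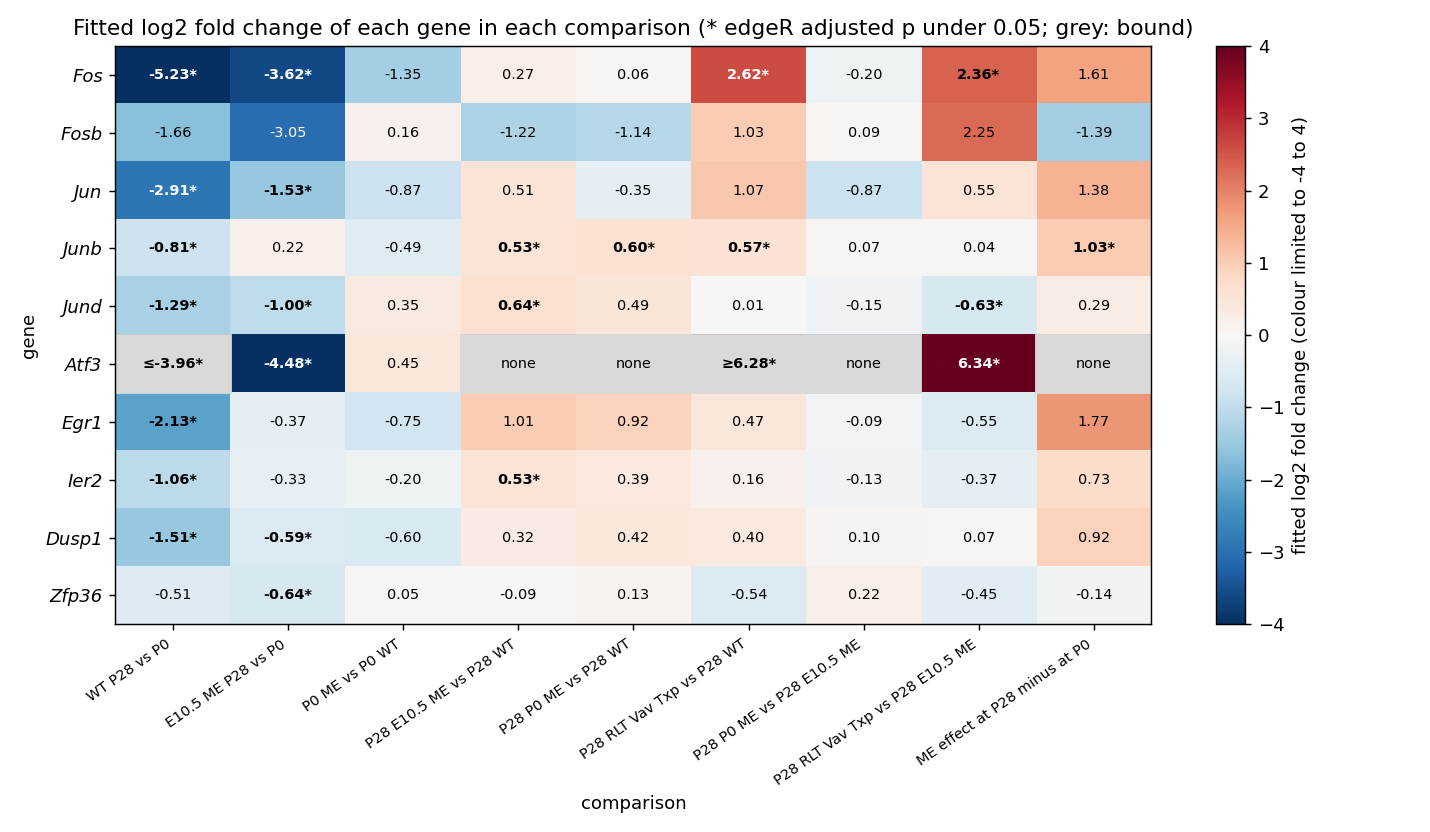
Fitted log2 fold change of each gene (rows) in the 9 comparisons (columns), coloured from blue (lower) to red (higher), with an asterisk at an edgeR adjusted p under 0.05. Grey cells are Atf3 where a group was under the floor of 3 counts per library, with the bound printed where one could be given. In the WT age column all 9 fitted values are below 0 and the Atf3 bound is at most -3.96, and Junb is called higher in all 3 columns that set a P28 ME group against P28 WT.

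Other genes of the pathway were read from 5 lists, 85 genes in all. In P0 ME against P0 WT and in P28 P0 ME against P28 WT, edgeR called 0 of the 85, with 24 and 20 at an unadjusted p under 0.05. Over all genes edgeR called 0.642% and 1.57%, and the share of all genes at that unadjusted p was not counted. DESeq2 called 2 higher and 3 lower in the first, beside 802 of all 22511 genes. In the second it called 3 higher and 1 lower, beside 1872 of all 15002 genes. Limma voom called 0 in the first, beside 18 of all 23059 genes. In the second it called 24 higher and 1 lower, beside 5014 of all 23059 genes. Of 26 other immediate early genes, 9 were called lower from P0 to P28 in WT, against 4.56% of all genes. Ppp1r15a, which restarts translation after stress, had a log2 fold change of -1.48 ± 0.23 (SE, adjusted p = 0.00019 by edgeR), Klf2, a quiescence-linked Krüppel-like factor, -4.72 ± 0.73 (SE, adjusted p = 0.000351), and Klf6 -0.75 ± 0.15 (SE, adjusted p = 0.00241). When only the groups compared were fitted, 2 of the 26 were called lower, beside 481 of all 19225 genes called either way. In E10.5-induced ME 6 were lower and 2 higher between the ages, against 8.45% of all genes called lower and 9.79% called higher, with Myc, the growth regulator, at 1.61 ± 0.23 (SE, adjusted p = 5.35e-05), and Ppp1r15a at -1.17 and Ccn1 at -5.82. In P28 ME RLT Vav Txp against P28 WT, 2 of 26 were higher, against 2.64% of all genes. These were Ppp1r15a at 1.21 ± 0.23 (SE, adjusted p = 0.0016 by edgeR) and Mcl1, a survival factor of the BCL2 family, at 0.50 ± 0.12 (SE, adjusted p = 0.0106).

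Of 14 other AP-1 and small Maf genes, 2 were lower from P0 to P28 in WT, against 4.56% of all genes. They were Maf at -1.91 and Fosl2, a Fos relative, at -1.28. Against P28 WT, 3 of the 14 were higher in P28 ME RLT Vav Txp, where 2.64% of all genes were. Among them were Maf at 3.37 ± 0.47 (SE, adjusted p = 6.58e-05 by edgeR) and Batf2 at 1.43 ± 0.37 (SE, adjusted p = 0.0245). Maf is also expressed in macrophages, whose markers summed to 1958 to 7343 CPM in the same libraries, against 569 to 727 CPM in P28 WT. The part of macrophages in the Maf value was not tested.

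The 14 genes for MAP kinase feedback and mRNA decay include Dusp6, the ERK phosphatase. It was lower at P28 than at P0 in WT (-0.97, SE 0.16, edgeR adjusted p = 0.000351), higher at P28 in E10.5-induced ME (0.63, SE 0.16, adjusted p = 0.00673), and passed the interaction at 1.6 ± 0.22 (SE, adjusted p = 0.00141), the only 1 of the 14 to do so. The interaction called 0.468% of all genes higher. In P28 E10.5 ME against P28 WT, 4 of the 14 were higher, against 7.82% of all genes. Dusp6 at 1.11 ± 0.16 (SE, adjusted p = 0.000311 by edgeR), the ERK pathway inhibitor Spred1 at 0.63 ± 0.17 (SE, adjusted p = 0.0185) and Dusp7 at 0.77 ± 0.21 (SE, adjusted p = 0.0196) led. That count ranged from 1 with plain library totals to 7 with limma voom, which called 2251 and 6505 of all 23059 genes.

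Of 18 upstream kinases and SRF or CREB factors, 1 was lower in P28 WT than in P0 WT, close to the 4.56% of all genes. It was Crem, at -1.53 ± 0.37 (SE, adjusted p = 0.00985 by edgeR). In P28 E10.5 ME against P28 WT 4 were higher, against 7.82% of all genes. Rps6ka5 at 0.84, Mapk14, the p38 kinase, at 0.60 and Map2k1, the ERK kinase, at 0.52 were the first 3. The count ran from 1 to 12 over the alternatives. All-gene calls there ran from 1767 of 41240 with no filter to 6296 of 18491 with only the groups compared. In P28 ME RLT Vav Txp against P28 E10.5 ME, 9 of 18 were lower, against 9.38% of all genes called lower and 17.9% either way. Among them were the SRF partner Elk3 at -0.90 ± 0.16 (SE, adjusted p = 0.000419 by edgeR), Mapk14 at -0.63 ± 0.15 (SE, adjusted p = 0.00697) and Map2k1 at -0.58 ± 0.14 (SE, adjusted p = 0.00781).

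Heat shock and chaperone genes, which mark another kind of stress response, were read as well. From P0 to P28 in WT 0 of 13 passed by edgeR, DESeq2 or limma voom, and 1 had an unadjusted p under 0.05. Over all genes these called 7.68%, 2759 of 22073 and 1309 of 23059, and 13 genes are too few to tell 0 from such shares. The share of all genes at that unadjusted p was not counted. In E10.5-induced ME 6 of 13 were higher at P28, against 9.79% of all genes, led by Hspa8 (1.29, SE 0.18, edgeR adjusted p = 2.55e-05), Hsph1 (2.12, SE 0.34, adjusted p = 0.000165) and Hsp90ab1 (0.66, SE 0.14, adjusted p = 0.0022). In P28 E10.5 ME against P28 WT 4 of 13 were higher, against 7.82% of all genes. Hspa8 (1.20, SE 0.25, edgeR adjusted p = 0.0261) and Hsp90ab1 (0.88, SE 0.20, adjusted p = 0.0408) passed the interaction, which called 0.468% of all genes higher.

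**Figure D5:**
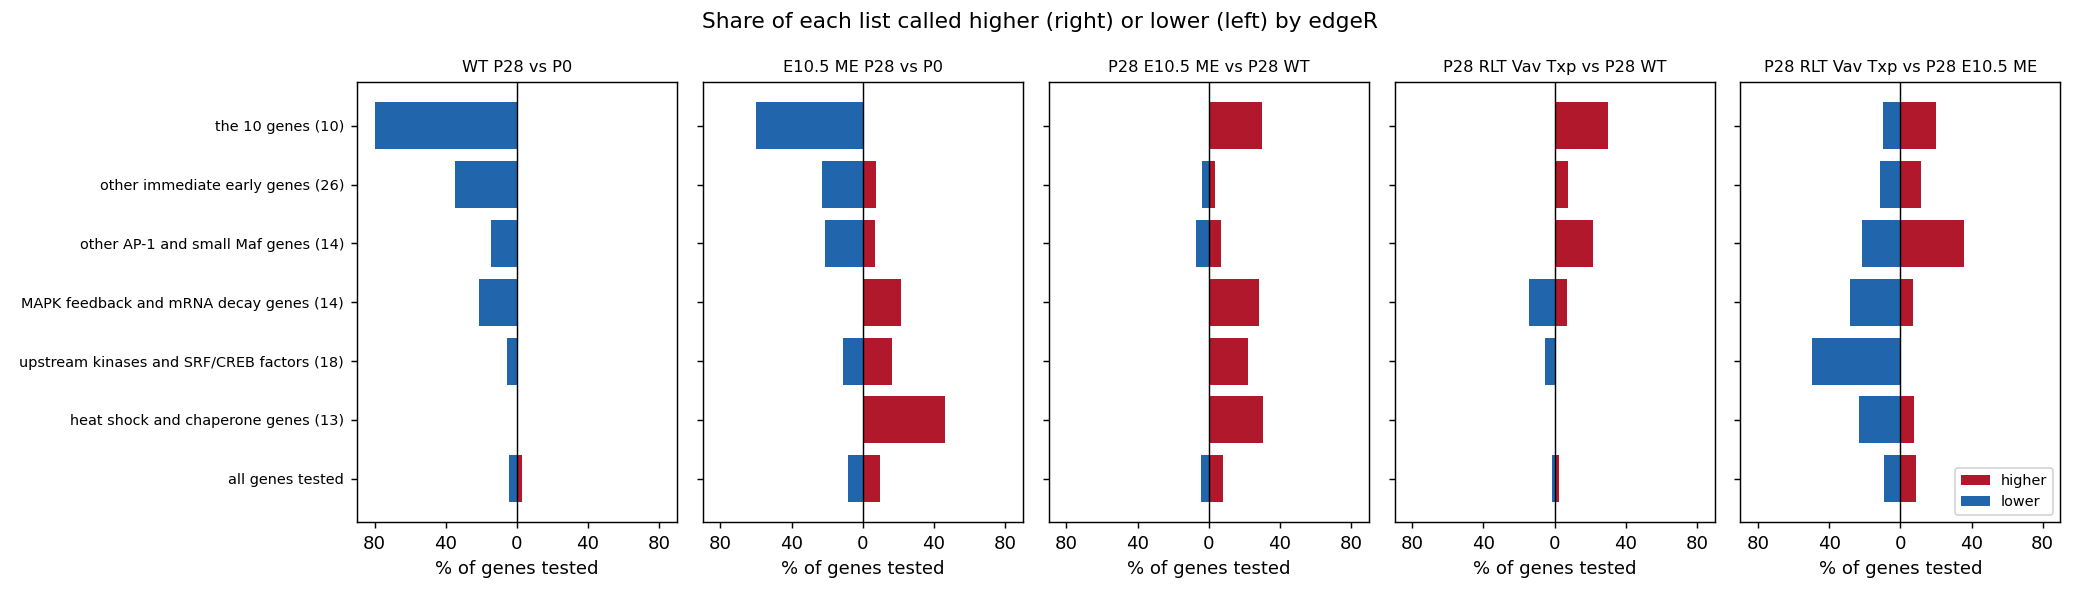
Percent of each list called higher (right, red) or lower (left, blue) by edgeR in 5 comparisons, with list sizes in parentheses and all genes tested in the last row. In WT from P0 to P28 the 10 genes have 8 lower calls and the 13 heat shock and chaperone genes have 0, against 4.56% of all genes. In E10.5-induced ME 6 of those 13 are higher, against 9.79% of all genes.

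The 10 genes varied together mainly between groups. Over the 24 libraries, 43 of the 45 pairs had a positive Pearson r of log2 CPM, with a median of 0.448 and a range of -0.06 to 0.844, Fos with Jun being the highest. After each group's mean was subtracted, 29 of 45 pairs were positive, with a median of 0.092 and a range from -0.532 (Junb with Atf3) to 0.595. These r values describe libraries that share groups and sorts, and are given with no test.

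Among 9676 other genes, those whose log2 CPM was most like the mean of the 10 over the 24 libraries were Ldha (Pearson r 0.912), Snap23 (0.88), Fcgr3 (0.876), Ppp1r15a (0.872) and Sgk1 (0.868). That mean was taken over log2 CPM centred on each gene's own mean, without scaling. Genes of wide range, such as Fos and Atf3, thus weighed more in it than Junb or Zfp36. Ldha, lactate dehydrogenase A, had a mean of 1776 ± 239 CPM in P0 WT, against 837 ± 67.4 CPM at P28 (SD, n = 4 each). Within groups the most alike were Crem (0.745), Mdfic (0.725), Riok3 (0.724), Ppa1 (0.716) and Nabp1 (0.685), and neither list shares a gene with the other.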

How the data were processed

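The authors deposited 1 table of raw gene counts for the 24 libraries; their processing notes name STAR 2.7.9a, Subread and featureCounts 2.0.3 with GRCm38, per the submitters' processing notes, while strand setting, treatment of multiply mapped reads and annotation release are not given in the sources used here. The table had 55774 rows, of which 287 repeated rows, from 168 IDs with identical counts, were dropped. Genes passing edgeR's filterByExpr (minimum count 10) were fitted together over all 24 libraries with TMM factors and edgeR 4.0.16's robust quasi-likelihood test (18 residual degrees of freedom, Benjamini-Hochberg adjusted p under 0.05 called), in R 4.3.3; the fit was tested on simulated data. Folds against groups under 3 counts per library are bounds at that floor. Alternatives were RLE factors, DESeq2 1.42.0, limma 3.58.1 voom with quality weights, no filter, only the groups compared, a replicate block, each library left out in turn and, added after seeing the data, plain library totals, GC and length offsets and both P0 libraries numbered 1 left out. The 10 genes were named by symbol; of each other list, at most 3 called genes with the lowest adjusted p are named per comparison, except 1 that is not reported here, and the 5 genes of most similar pattern by Pearson r. The members and lists were chosen with earlier results of these data known. Cyr61, Mkl1 and Mkl2 were read under the table's symbols Ccn1, Mrtfa and Mrtfb. Gene limits and exon lengths are from GENCODE M21, and promoter sequences from RefSeq (GRCm38.p6). P-values rest on 4 libraries a group.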

Additional observations from a re-analysis of the deposited data

Results flagged for a closer look

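In 6 of 58 sets of 4 libraries tested, 1 library stood apart from the other 3 by Dixon's gap test (chance alone gives about 1 in 20). Egr1 was at 208.1 CPM in P0 WT library 1, against 37.6 to 61.0 CPM in the others, the library with 12040 CPM of mast cell and basophil markers. Fosb was at 3.428 CPM in P0 ME library 2, against 0.0342 to 0.557 CPM, and at 1.602 CPM in P28 ME RLT Vav Txp library 3, against 0.162 to 0.394 CPM. Ier2 was low in P28 E10.5 ME library 4, at 99.85 CPM against 131 to 135 CPM. Dusp1 was at 42.78 CPM in P28 ME RLT Vav Txp library 4, against 30.6 to 32.3 CPM, and Zfp36 at 118.4 CPM in P0 ME library 4, against 72.1 to 76.6 CPM. The effect of ME on Junb differed between P28 and P0, by 1.029 on the log2 scale (edgeR adjusted p = 0.0302), a call lost without any 1 of 10 of the 16 libraries and in 3 of the 10 other settings.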

How the results depend on the processing

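None of the 47 fold changes given above for the 10 genes reversed when refitted under other settings, which gave 830 values, many from the same fit. Of these values 722 kept their side of the threshold, 88 fell short of it and 20 newly passed it. Counts of the 10 genes called that moved by over 1.5 times, or from 0, are given first. For P0 ME against P0 WT, 0 became 1 with DESeq2, which called 802 of all 22511 genes. For P28 E10.5 ME against P28 WT, 3 became 0 with RLE factors, with no filter and with plain library totals. All-gene calls there were 2561 of 23059, 1767 of 41240 and 2251 of 23059. For P28 P0 ME against P28 WT, 1 became 0 with RLE factors, no filter or GC and length offsets, 3 with limma voom and 4 with only the groups compared. Over all genes limma voom called 5014 of 23059 and the fit of only the groups compared 5196 of 18601. For P28 P0 ME against P28 E10.5 ME, 0 became 1 with limma voom and with only the groups compared, beside 2333 of 23059 and 1147 of 18067 genes. For P28 ME RLT Vav Txp against P28 E10.5 ME, 3 became 5 with limma voom, beside 8112 of 23059 genes. For the interaction, 1 became 2 with limma voom and 0 with no filter, with only the groups compared and with plain library totals. All-gene calls there were 650 of 23059, 65 of 41240, 41 of 21770 and 73 of 23059. The other counts ran from 7 to 9 (8 as reported) and 4 to 7 (6) in the WT and ME age comparisons and 2 to 3 (3) in P28 ME RLT Vav Txp against P28 WT; those of P28 E10.5 ME against P28 WT also became 4, and of P28 ME RLT Vav Txp against P28 E10.5 ME 2 or 4. The cause was not tested. With 1 library left out, counts ranged from 0 to 0, 0 to 3, 0 to 1, 2 to 3, 0 to 0 and 2 to 4 in P0 ME against P0 WT, P28 E10.5 ME and P28 P0 ME against P28 WT, P28 ME RLT Vav Txp against P28 WT, P28 P0 ME against P28 E10.5 ME and P28 ME RLT Vav Txp against P28 E10.5 ME, from 7 to 9 and 3 to 6 in the WT and ME age comparisons, and from 0 to 3 in the interaction.

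Plain totals moved the median of all genes by over 0.1 in 3 comparisons, to -0.23 from -0.10 in P28 E10.5 ME against P28 WT, to 0.08 from -0.07 in the WT age comparison and to -0.24 from -0.04 in the interaction. The replicate numbers of 20 libraries were not taken as pairs, which would need every same-numbered r over 0.1. In P0 ME against P0 WT 3 of 4 were (0.053 to 0.66), with 6 of 8 libraries closest to their own number, a hint of pairing there, and r lay at -0.394 to 0.298 in the other comparisons. With a replicate block 8 genes were called in the WT age comparison and 5 in that of ME, as without the block over the same 20 libraries, where Atf3 was not called in ME, and counts elsewhere did not move by over 1.5 times. The depth limits Atf3 and Fosb, with under 30 counts in most P28 libraries.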
